A study of Mus musculus with 6 samples.

Results

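Array signal is described for a set of 37 genes of the cell cycle and of proliferation in livers of mice with a conditional Keap1 knockout and of their genetic controls. The set was chosen by gene name. Each gene was read from its brightest probe set, the one with the highest mean log2 signal over the 6 arrays among those carrying that single symbol in the platform annotation. Of the 37 genes, 36 had such a probe set, out of 18193 genes named on the arrays, and Ccnb1, cyclin B1, was not analysed here. Liver RNA came from 6 male mice aged 9 weeks, with 1 mouse per array. The 3 knockouts were Alb-Cre::Keap1(flox/-), with Cre driven in hepatocytes by the albumin promoter and acting on the floxed allele, while the second allele was null. The 3 controls were Alb-Cre:Keap1(flox/+), so where Cre acts they keep a single working allele. Cells of the knockouts without Cre also carry the null allele. All 6 mice, knockouts and controls, were given vehicle (10% DMSO and 10% Cremophor-EL in 80% PBS) and no drug. Single values are given in the order of the labels' numbers, 3, 4 and 5 for knockouts and 1, 2 and 3 for controls.

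A dividing cell passes from a growth phase into DNA synthesis and then mitosis, driven by cyclin-dependent kinases that act only when bound to a cyclin. D-type cyclins with CDK4 or CDK6 and E-type cyclins with CDK2 phosphorylate the retinoblastoma protein, which frees E2F factors to switch on replication genes, and a later wave of mitotic genes depends on FOXM1. Most hepatocytes of an adult liver are quiescent and re-enter the cycle after injury or partial removal of the organ. KEAP1 directs the degradation of the transcription factor NRF2, known chiefly for switching on genes of detoxification and antioxidant defence.

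The deposited values were linear array signals that shared a trimmed mean of 500.0 on every array. Across the tested genes, which are not independent replicates, log2 signals of 2 arrays correlated at 0.971 to 0.977 within a group and 0.960 to 0.965 between groups. Actin signal at the 3′ end over that at the 5′ end, a sign of RNA quality, was 1.58 to 1.85 in knockouts and 1.54 to 1.90 in controls. The brighter Keap1 probe set stood at 326.2, 151.4 and 213.6 in the knockouts, against 785.9, 843.1 and 699.8 in the controls (log2 difference -1.74, limma adjusted p = 0.0118), all knockouts below all controls. A second Keap1 probe set differed less, at 62.5% of control where the brighter one was at 29.7%. Its log2 difference was -0.71, again without overlap. The labels do not say whether either probe set reads deleted sequence, which limits what their levels can check. Nfe2l2, which encodes NRF2, was at 63.3% of control in its brighter probe set (limma adjusted p = 0.0303). That call held in 1 of 6 runs without 1 mouse. In a second Nfe2l2 probe set, at 87.2% of control, the groups overlapped, with a log2 difference of -0.18. Of 47 tested markers in 7 lists of liver cell types, 0 rose and 0 fell. All 8 measured hepatocyte markers were above the filter. Of these, 7 lay above control with a median log2 difference of 0.18. In 6 of the 8 all knockouts were above all controls, which held for 10.3% of all genes tested. The differences of these 6 ran from 0.13 for Apoa1 to 0.41 for Hnf4a, which had the smallest limma adjusted p, 0.109. The summed signal of the 8 hepatocyte markers was 207100 to 231300 in knockouts and 183800 to 208700 in controls. Summed signals of the stellate cell markers did not overlap (6797 to 6937 in knockouts, 7243 to 8894 in controls), nor did those of the liver endothelial markers (7237 to 8023 in knockouts, 6968 to 7110 in controls). The single markers went both ways, with 3 of 8 stellate and 4 of 8 endothelial ones above control. Their median log2 differences were -0.09 and 0.04. Only Reln (-0.31) of the stellate markers, and Lyve1 (1.29) and Stab1 (0.38) of the endothelial ones, had groups that did not overlap. The cholangiocyte sum was 257.8 to 528.1 in knockouts and 312.6 to 1318 in controls, with the defining markers Krt19 and Cftr under the filter, as were Cd3e, Cd3g and Nkg7 of the leukocytes. What these cell types contribute to the differences described here was not tested.

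Few of the cell cycle genes differed between the groups beyond the spread between mice. Among the 27 genes tested, 0 rose and 1 fell in the knockouts. The gene that fell was Cdk2, a kinase of S phase entry. That is 3.7% of those tested, where 1.98% of all 13027 genes tested passed the threshold (limma adjusted p under 0.05), 1.04% being higher and 0.944% lower in the knockouts. The Cdk2 call did not survive leaving out any 1 mouse, and without knockout 5 the single call was instead a higher Rrm2, a subunit of ribonucleotide reductase. The signals of the groups did not overlap for 5 of the 27, namely Cdk6, which was higher, and Ccnd1, Cdk2, Mcm7 and Rrm1, which were lower. This is 18.5%, beside 21.3% of all genes tested (10.3% higher and 10.9% lower), a share near the background. Cdk2, Cdk6, Mcm7, Ccnd1 and Myc had an unadjusted limma p under 0.05, again 5 of 27, beside 15.2% of all genes tested.

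Low signal limited what could be compared. The 9 genes Ccnb2, Cdk1, Tyms, Mki67, Aurkb, Bub1, Bub1b, Plk1 and Birc5 lay near background, under a filter at the 40th percentile of all probe sets, which is a signal of about 79, and were not tested in the filtered fit. A further 10 lay above the filter but not above a signal of 201, the 95th percentile of 44 probe sets for olfactory receptors, which liver is not known to use. The other 17 exceeded it. The 10 in between were Ccna2, Ccne1, Ccne2, Mcm3, Mcm5, Mcm6, Top2a, Aurka, Cdc20 and E2f1. In a fit without the filter, 0 of the 36 genes passed the threshold, where 1.06% of 18193 genes did.

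On the log2(signal + 16) scale the differences of the 27 tested genes ran from -0.65 for Ccnd1 and Mcm2 to 0.68 for Myc. Of the 27, 19 lay below control, or 70.4%, beside 52.8% of all genes tested. The median difference of the 27 was -0.07, beside -0.02 for all genes tested. The sign of that median depended on the scaling: after median centring it was 0.02 with 12 of 27 genes below control, beside 0.08 for all genes. Over all 36 genes the median was -0.10, with 25 below control. For all genes without a filter the median was -0.03, with 54.3% below control.

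**Figure D1:**
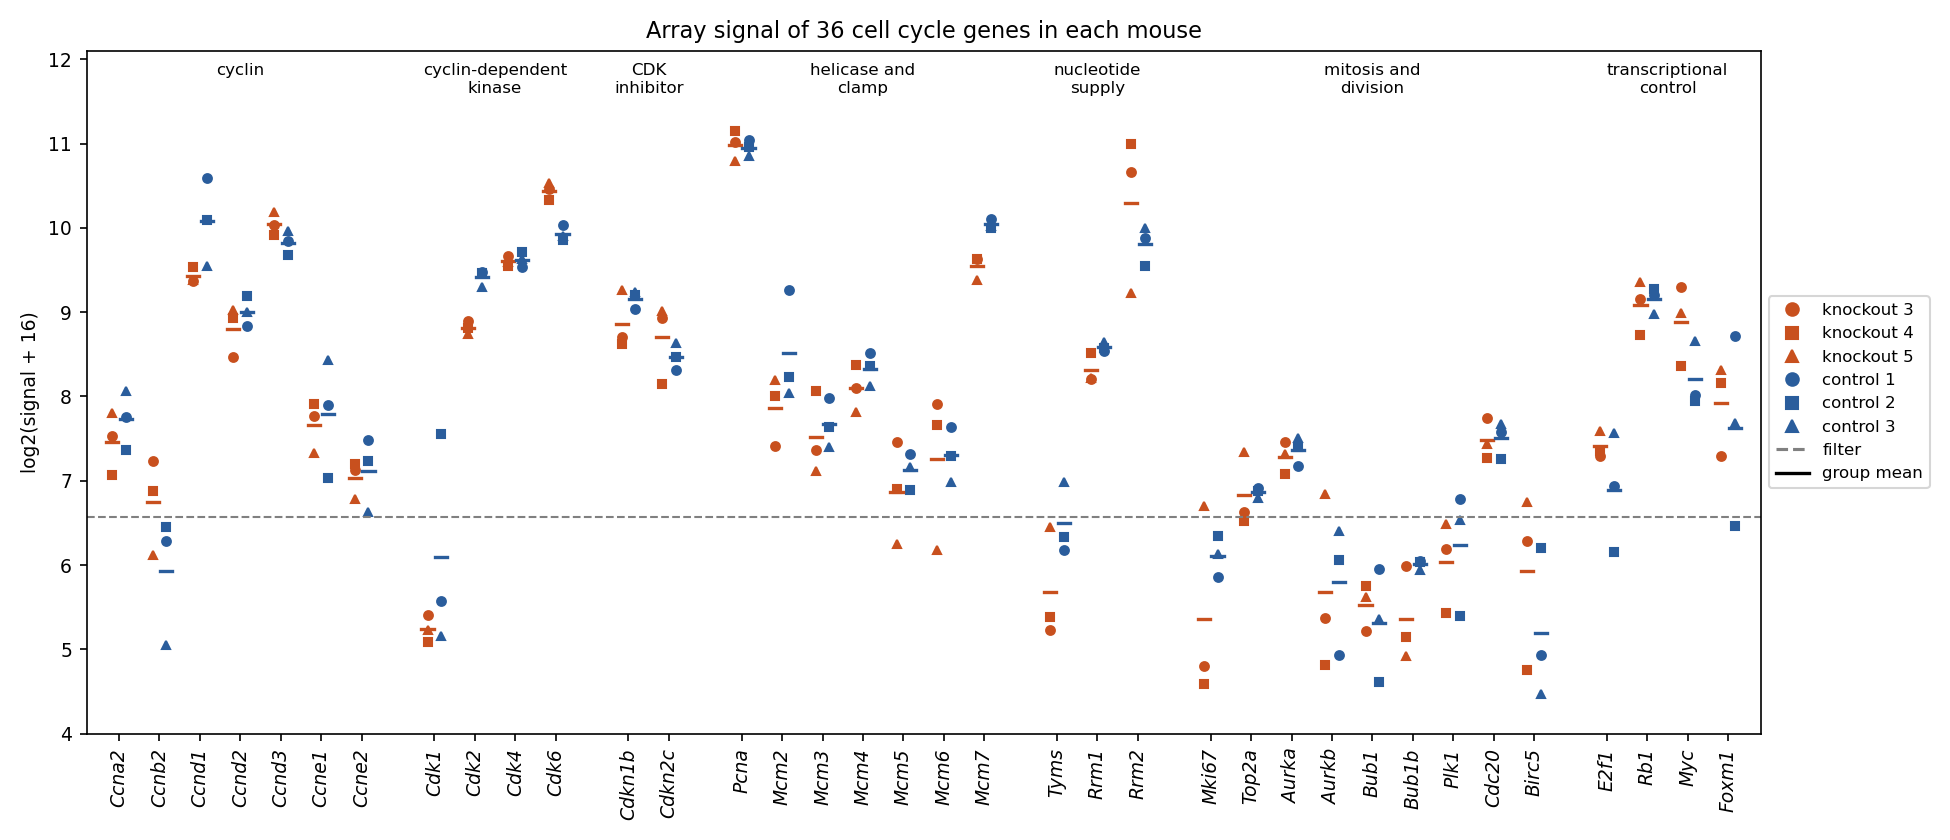
Signal of 36 cell cycle genes in each mouse as log2(signal + 16) on the vertical axis, with genes grouped by role along the horizontal axis. For every gene knockouts 3, 4 and 5 stand left of controls 1, 2 and 3, horizontal bars are group means (n = 3 each), and the dashed line marks the filter at a signal of 79. The groups lie close together for most genes, and 9 genes have means over the 6 mice under the filter.

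**Figure D2:**
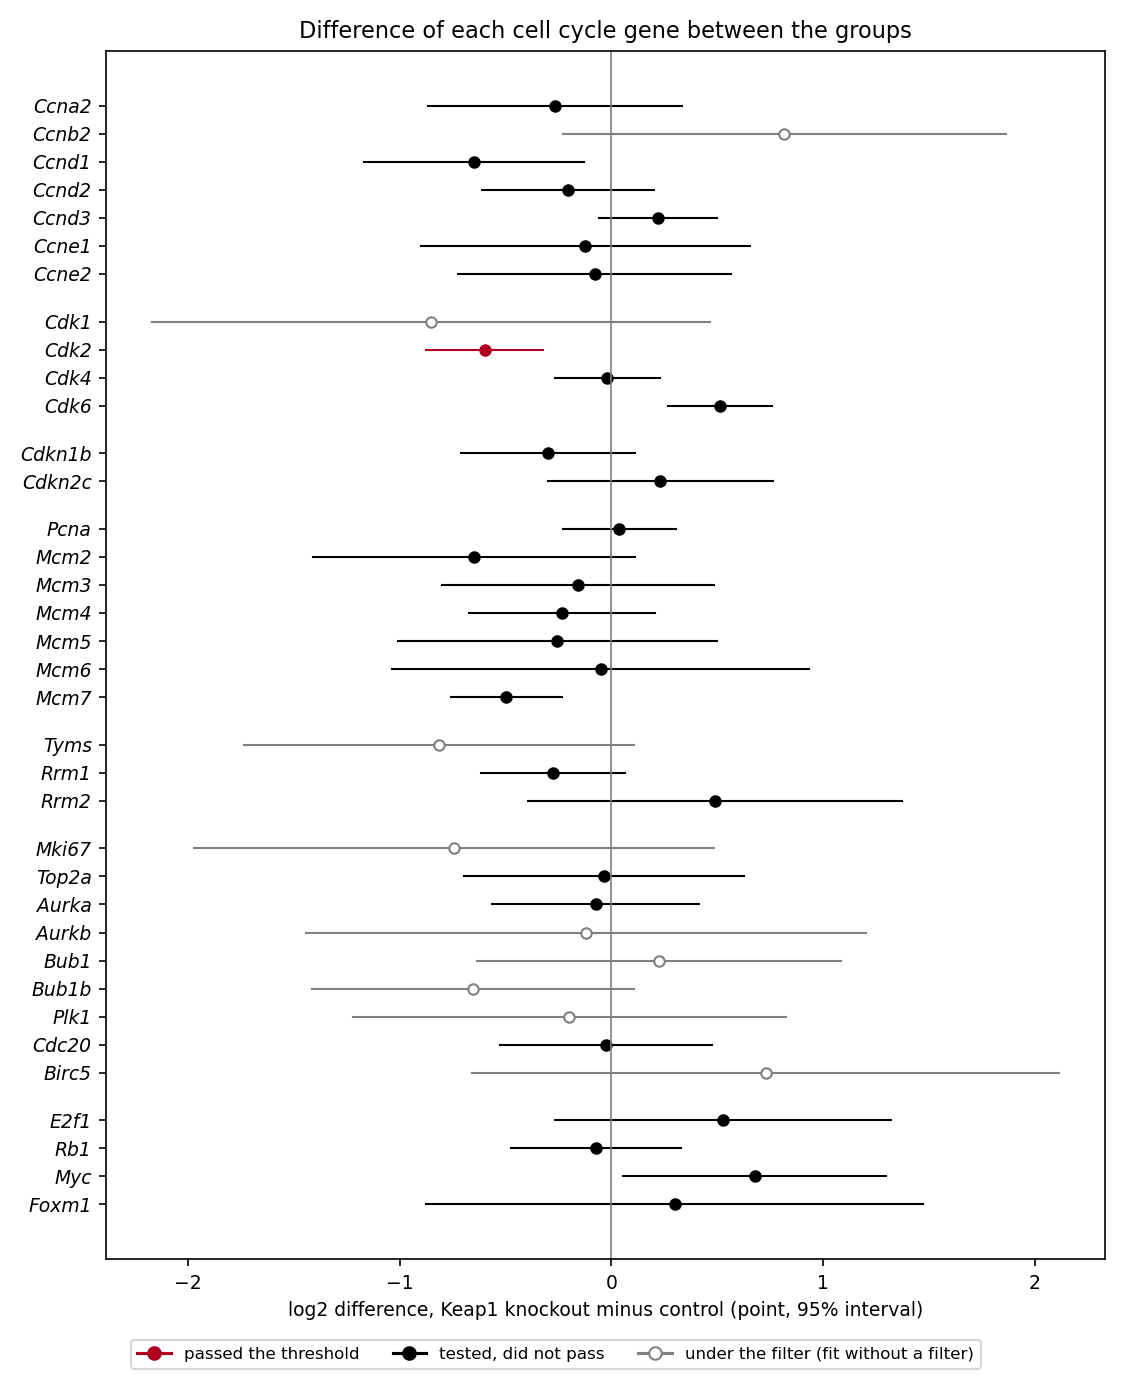
Difference of each cell cycle gene on the log2(signal + 16) scale, knockout minus control, with the 95% interval from limma (n = 3 each). Cdk2 at -0.60 is the gene that passed the threshold, and open points show the 9 genes under the filter, taken from the fit without it.

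The cyclins, which give the kinases their timing, had 0 that rose and 0 that fell among 6 tested. Ccnd1 encodes cyclin D1, which hepatocytes induce when they leave quiescence. Its signal was 647.7, 725.4 and 648.7 in the knockouts, against 1523, 1076 and 733.9 in the controls. The knockouts lay close together and all below the lowest control, while the controls were spread widely, with control 1 at the top. The log2 difference was -0.65 (standard error 0.23, limma adjusted p = 0.220) and did not pass. It rested in part on single controls, being -0.39 without control 1 and -0.91 without control 3 (limma adjusted p = 0.408 and 0.0527).

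Both further Ccnd1 probe sets kept the groups apart as well, with control 1 again highest. The first read 406, 555.7 and 431.9 in knockouts, against 1469, 952.3 and 607.8 in controls, a log2 difference of -1.02 (limma adjusted p over probe sets = 0.133). The second read 185, 267.9 and 182.6 in knockouts, against 513.9, 401.3 and 295.2 in controls, a log2 difference of -0.87 (adjusted p = 0.127). Probe sets of a gene read the same RNA and are not separate evidence.

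In their brightest probe sets the remaining cyclins overlapped between the groups. Ccnd2, a D-type cyclin, stood at 436.9 ± 88.0 in knockouts and 501.3 ± 64.2 in controls (SD, n = 3 each), a log2 difference of -0.20, and all 6 of its further probe sets had that sign. A further Ccnd2 set kept the groups apart, at 251, 334.4 and 328.6 in knockouts, against 473, 380.8 and 340.5 in controls. Its log2 difference was -0.37 (limma adjusted p over probe sets = 0.396). Ccnd3, another D-type cyclin, stood at 1044 ± 98.8 in knockouts and 894.1 ± 90.5 in controls, a log2 difference of 0.22. Its further probe sets were under the filter and differed by -0.94, with all knockouts below all controls, and by 0.03 with overlap. Ccna2, the cyclin of S phase and G2, differed by -0.27 in its brightest probe set and by 0.96 in a dimmer one, so its direction was unsettled. Ccne1 and Ccne2, the E-type partners of CDK2, differed by -0.12 and -0.08 on the log2 scale, and the sign of each turned under some of the other settings. Ccnb2, a B-type cyclin of mitosis, lay under the filter at 134.7, 101.6 and 53.6 in knockouts, against 61.7, 71.8 and 17.1 in controls.

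Among the cyclin-dependent kinases, Cdk2 fell, Cdk6 lay above control and Cdk4 differed little. Cdk2 had a signal of 458.1, 434.3 and 411.1 in the knockouts, against 694.7, 692.4 and 613.5 in the controls. Every knockout was below every control, and the gap between the groups was wider than the range within either. The means were 434.5 ± 23.5 in knockouts and 666.9 ± 46.2 in controls (SD, n = 3 each), and the log2 difference was -0.60 (standard error 0.12, 95% interval -0.88 to -0.32, limma adjusted p = 0.0463). In bulk liver RNA, fewer cells that express a gene and less of its RNA per cell cannot be told apart.

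The direction and size of the Cdk2 difference held while the call did not. Over 19 other settings the log2 difference stayed between -0.76 and -0.50, and the adjusted p ranged from 0.0217 to 0.315, with a call in 7 settings. Leaving out 1 mouse gave adjusted p from 0.0664 to 0.148 in 6 runs, with 0 calls. The probe set carries the suffix of those that can match several transcripts, and the gene's other probe set read at most 0.4 in knockouts and at most 7 in controls, too dim to compare.

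Cdk6, a partner of the D-type cyclins, had a signal of 1397, 1266 and 1469 in the knockouts, against 1034, 910.4 and 939.9 in the controls, again without overlap but in the other direction. The difference on the log2 scale, 0.51 (standard error 0.11, 95% interval 0.27 to 0.76), narrowly missed the threshold (limma adjusted p = 0.0541). A second probe set, at 1485, 967.3 and 1195 in knockouts and 993.3, 541.6 and 838.3 in controls, differed by 0.63 with overlap between the groups (adjusted p over probe sets = 0.248), and a dim further one by 0.25. Cdk6 passed with a filter at the 60th percentile and with array weights (limma adjusted p = 0.0445 and 0.0394). Cdk4, the other partner of the D-type cyclins, stood at 762.4 ± 33.5 in knockouts and 773.6 ± 46.7 in controls (SD, n = 3 each), a log2 difference of -0.02 with a 95% interval of -0.27 to 0.23. Cdk1, the mitotic kinase, lay under the filter at 26.6, 18 and 21.6 in knockouts, against 31.6, 172.6 and 19.7 in controls, with control 2 standing apart from the other 5 mice.

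The stretch of 250 bases before the RefSeq start of these 3 kinases (assembly GRCm38.p6) is shown because Cdk2 is the gene of the set that fell and the 3 stretches differ in the motifs looked for. Cdk2 lies on chr10:128705052-128705301, minus strand, Cdk6 on chr5:3343643-3343892, plus strand, and Cdk1 on chr10:69352913-69353162, minus strand. Each is printed 5′ to 3′ along the gene. Capitals mark the CCAAT box, the core TTTGAA of the cell cycle homology region and the E2F-like words TTTGGCGC, TTTCGCGC and TTTCCCGC, on either strand.
Cdk2: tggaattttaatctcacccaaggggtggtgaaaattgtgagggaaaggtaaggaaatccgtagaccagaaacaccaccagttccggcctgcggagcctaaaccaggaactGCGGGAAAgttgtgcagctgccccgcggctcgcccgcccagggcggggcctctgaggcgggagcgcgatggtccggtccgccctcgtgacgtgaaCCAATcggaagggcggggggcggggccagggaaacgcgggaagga
Cdk6: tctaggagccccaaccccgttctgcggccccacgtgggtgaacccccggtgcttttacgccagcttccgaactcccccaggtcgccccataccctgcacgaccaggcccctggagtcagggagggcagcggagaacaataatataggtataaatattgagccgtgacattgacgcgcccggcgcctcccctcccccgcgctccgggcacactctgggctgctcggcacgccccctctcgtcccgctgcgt
Cdk1: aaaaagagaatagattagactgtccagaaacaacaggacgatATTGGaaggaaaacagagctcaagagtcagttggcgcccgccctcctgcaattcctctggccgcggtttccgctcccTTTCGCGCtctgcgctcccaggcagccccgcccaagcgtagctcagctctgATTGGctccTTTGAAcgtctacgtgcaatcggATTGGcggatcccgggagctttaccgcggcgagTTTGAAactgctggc
The Cdk2 stretch holds 1 CCAAT box and 1 match to TTTCCCGC, that word being read on the opposite strand. The Cdk1 stretch holds 3 CCAAT boxes, 2 matches to TTTGAA and 1 match to TTTCGCGC, and the Cdk6 stretch holds none of the words.

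The CDK inhibitors of the set, which hold the kinases back, overlapped between the groups. Cdkn1b, which encodes p27, stood at 401.7, 379.3 and 596.7 in knockouts, against 511.5, 573.3 and 587.9 in controls, a log2 difference of -0.30 (limma adjusted p = 0.482). Knockouts 3 and 4 were below every control and knockout 5 above all of them. Cdkn2c, which encodes p18, stood at 471.9, 268.4 and 502.6 in knockouts, against 302.7, 337 and 379.8 in controls, a log2 difference of 0.23 (adjusted p = 0.696), with knockout 4 the lowest mouse.

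The replicative helicase MCM2 to MCM7, which unwinds DNA at origins, and the clamp PCNA, which tethers the polymerases, had 0 of 7 genes that rose and 0 that fell. Mcm7 had a signal of 778.8, 773.5 and 648.4 in the knockouts, against 1086, 1003 and 1027 in the controls, with no overlap. Its log2 difference was -0.50 (standard error 0.12, limma adjusted p = 0.0744), and it passed under scaling on the hybridisation controls (adjusted p = 0.0276). The 3 further Mcm7 probe sets, read from the same RNA, differed by -0.24, -0.07 and -0.02, so the separation was a matter of 1 probe set.

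The other helicase genes overlapped between the groups. Mcm2 had 153.7, 240.8 and 276.3 in knockouts, against 600.4, 285.3 and 248.3 in controls, a log2 difference of -0.65 (limma adjusted p = 0.405), or -0.27 without control 1. Its second probe set pointed the other way, by 0.42. Mcm3, Mcm4, Mcm5 and Mcm6 differed by -0.16, -0.23, -0.26 and -0.05 on the log2 scale. Their adjusted p ran from 0.612 for Mcm4 to 0.974 for Mcm6. Without knockout 5 the sign turned for Mcm3, Mcm5 and Mcm6, to 0.04, 0.05 and 0.49. Mcm6 had a positive sign in 7 alternative settings in all, median centring among them. Pcna stood at 2026 ± 250.6 in knockouts and 1966 ± 135.3 in controls (SD, n = 3 each), a log2 difference of 0.04 with a 95% interval of -0.23 to 0.30.

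Among the genes of deoxynucleotide supply, Rrm2 divided the mice in a way that Rrm1 and Tyms did not share. Rrm2, the small subunit of ribonucleotide reductase and usually limiting for DNA synthesis, had a signal of 1610, 2021 and 583.5 in the knockouts, against 924.5, 734.2 and 1003 in the controls. Knockouts 3 and 4 were above every control, and knockout 5 was below all of them. The log2 difference was 0.49 (standard error 0.39, limma adjusted p = 0.599). Without knockout 5 it was 1.02 and passed (limma adjusted p = 0.0438), and without knockout 4 it was 0.14.

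The Rrm2 pattern was alike in its further probe sets. One read 890.9, 902.6 and 325.9 in knockouts, against 397.4, 352.5 and 529.5 in controls. The other read 693, 585.2 and 218.8 in knockouts, against 271.4, 256.2 and 330.5 in controls. In both, knockout 5 was the lowest of the 6 mice.

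Rrm1, the large subunit of the same enzyme, had a signal of 279.7, 351 and 281 in knockouts, against 357.3, 366.5 and 383.7 in controls. The groups did not overlap, but knockout 4 came close to control 1, and the log2 difference of -0.27 did not pass (limma adjusted p = 0.429). In a second probe set above the filter the groups overlapped, with a log2 difference of 0.04. Tyms, thymidylate synthase, was under the filter in its own probe sets, with 21.6, 25.6 and 71.2 in knockouts, against 56.6, 64.7 and 110.2 in controls. A brighter probe set annotated to both Tyms and a pseudogene read 156.3 ± 15.6 in knockouts and 204.8 ± 54.5 in controls (SD, n = 3 each), and cannot be assigned to either.

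Of 9 mitotic genes, Top2a, Aurka and Cdc20 passed the filter, and 0 rose or fell. These 3 did not exceed the olfactory receptor yardstick of 201. Top2a, the topoisomerase that untangles chromosomes, stood at 82.8, 75.6 and 146.6 in knockouts, against 105, 101.8 and 94.9 in controls. Knockout 5 was the highest mouse and the other knockouts were the lowest. Aurka, the kinase of spindle poles, stood at 141.1 ± 20.1 in knockouts and 149.1 ± 18.7 in controls, and Cdc20, an activator of the anaphase-promoting complex, at 164.2 ± 30.5 in knockouts and 167.0 ± 27.1 in controls (SD, n = 3 each). Their log2 differences were -0.07 and -0.02, and the sign of each turned under some other settings.

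The proliferation marker Mki67 read 12, 8.1 and 87.9 in knockouts, against 41.9, 65 and 54.1 in controls, so knockout 5 was above and the other knockouts below every control. Aurkb, kinase of the chromosomal passenger complex, read 25.5, 12.2 and 98.9 in knockouts, against 14.6, 50.5 and 68.8 in controls. Birc5, which encodes survivin of the same complex, read 61.7, 11 and 91.7 in knockouts, against 14.5, 57.7 and 6.1 in controls. In these 3 genes, as in the brightest Top2a probe set, knockout 5 was the highest mouse, in contrast to Rrm2. The other mitotic genes did not share this. Aurka was highest in control 3, Cdc20 in knockout 3, and Bub1, Bub1b and Plk1 in control 1. Nor was knockout 5 the highest mouse in the further Top2a probe sets, which lay under the filter. Mki67, Aurkb and Birc5 lie under the filter, so their order between mice is uncertain. Of the spindle checkpoint genes, Bub1 read 21.2, 37.9 and 33.4 in knockouts, against 45.8, 8.5 and 25.1 in controls. Bub1b read 47.6, 19.5 and 14.4 in knockouts, against 50, 49.8 and 45.4 in controls. Their log2 differences were 0.22 and -0.65, at signals under the filter. The mitotic kinase gene Plk1, also under the filter, read 27.3 to 74 in knockouts and 26 to 94 in controls.

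The 4 regulators of transcription, E2f1, Rb1, Myc and Foxm1, had 0 that rose and 0 that fell, and their groups overlapped in the brightest probe sets. Myc, a growth factor-induced transcription factor, had a signal of 613, 311.6 and 492.5 in the knockouts, against 243.1, 230 and 386.2 in the controls. Knockouts 3 and 5 were above every control, and knockout 4 was below control 3. The log2 difference was 0.68 (standard error 0.27, 95% interval 0.06 to 1.30, limma adjusted p = 0.283), the largest positive one among the 27 tested genes. It ranged from 0.47 to 0.94 over 19 other settings, with 0 calls.

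E2f1, an activator of replication genes, read 141.1, 147 and 176.8 in knockouts, against 106.2, 55.3 and 173.5 in controls, a log2 difference of 0.53 (limma adjusted p = 0.524). That difference was 0.16 without control 2 and 0.87 without control 3. Its further probe sets were under the filter. Rb1, the retinoblastoma protein that restrains E2F, stood at 534.3 ± 116.4 in knockouts and 555.7 ± 59.7 in controls (SD, n = 3 each), a log2 difference of -0.07. Foxm1, which drives mitotic genes, read 140.9, 269.4 and 303 in knockouts, against 405.6, 72.6 and 189.7 in controls. The controls spanned the knockouts, and its interval of -0.87 to 1.47 around 0.30 was the widest among the tested genes. Without control 2 its difference was -0.28, and without control 1 it was 0.85.

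Of the 36 genes, 27 had further probe sets, 53 in all. Of these, 24 were above the filter. Of the 24, 17 had the sign of the gene's brightest probe set and 0 passed over all probe sets, where 1.52% of 27022 probe sets did. The brightest Cdk2 set itself had an adjusted p of 0.0582 on that footing. No mouse was the highest or the lowest for most of the 27 tested genes. Knockout 3 was the highest of the 6 mice for 4 genes and the lowest for 4, knockout 4 for 3 and 6, and knockout 5 for 7 and 8. Control 1 was the highest for 7 genes and the lowest for 1, control 2 for 2 and 7, and control 3 for 4 and 1.

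**Figure D3:**
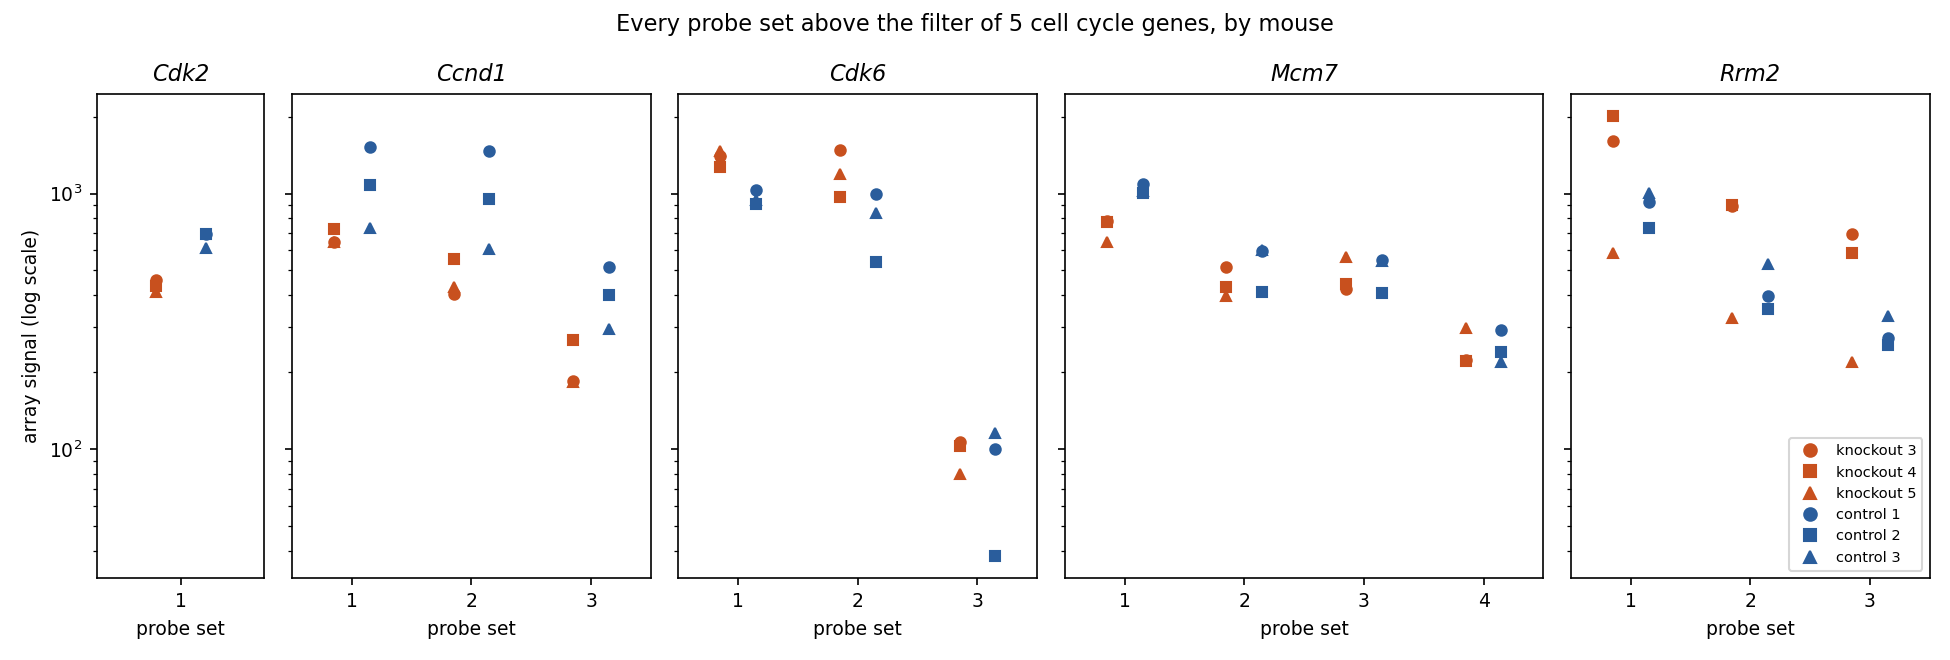
Signal on a log axis of every probe set above the filter for Cdk2, Ccnd1, Cdk6, Mcm7 and Rrm2, with probe sets numbered from brightest to dimmest. Knockouts stand left of controls and each point is 1 mouse. All 3 Ccnd1 probe sets separate the groups, 1 of 4 Mcm7 sets does, and knockout 5 lies low in all 3 Rrm2 sets.

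RefSeq promoters, taken as 250 bases before to 50 after the start, matched 28 of the 37 genes by symbol and gave 31 promoters. Ccna2, Ccnd1, Ccnd2, Ccne2, Mcm4, Aurkb, Rb1, Myc and Foxm1 were not analysed here. CCAAT, searched on both strands like the other words, was in 74.2% of the 31 promoters, beside 37.4% of 32851 promoters of that length. TTTGAA was in 29.0%, beside 17.9%. Of the E2F-like words TTTGGCGC was in 9.68%, beside 0.514%, TTTCGCGC in 12.9%, beside 0.323%, and TTTCCCGC in 9.68%, beside 1.07%. At least 1 of these was in 19.4%, beside 1.84%, in the promoters of Cdk1, Cdk2, Mcm3, Mcm5, Mcm6 and Mcm7, and matches overlapped in Mcm5 and Mcm6. TGACNNNGC, the core of the antioxidant response element that NRF2 binds, was in 22.6%, beside 12.4%, in Bub1, Ccnb1, Ccnd3, Cdk4, Cdkn1b, Pcna and Rrm2. Of the 5 tested genes with this last word, 0 passed the threshold. With only the 250 bases before the start, shares were lower for both sets of promoters, for instance 71.0% beside 33.8% for CCAAT. For TTTGAA the 2 shares then lay close together, at 19.4% beside 16%. A match is a run of letters and not a measured binding site.

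Around the 37 genes stand 8 wider lists of cell cycle and growth genes with 189 entries, chosen with earlier results of these data known. Among the 144 of them that were tested, 0 rose and 3 fell in the knockouts, namely Mcm10, Jund and Jun. That is 2.08%, beside the 1.98% of all genes tested. Without knockout 3 the only call left among them was Mcm10, and without each other mouse except control 1 there were 2. Groups did not overlap for 37 of the 144, or 25.7%, beside 21.3% of all genes tested. The median difference of the 144 was -0.10, beside -0.02 for all genes. Of the 144, 96 lay below control, or 66.7%, beside 52.8% of all genes tested. After median centring the median of the 144 was -0.01, beside 0.08 for all genes, and 73 of the 144 lay below control.

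Mcm10, a replication factor that joins the helicase at origins, had a signal of 1184, 1150 and 1356 in the knockouts, against 3095, 3436 and 2674 in the controls. The groups lay far apart, with a difference of -1.30 on the log2 scale (standard error 0.12, limma adjusted p = 0.00142), 2.47-fold lower in the knockouts, and the call held without each mouse in turn. Its other probe sets differed less or in the other direction. One read 83.1, 88.3 and 119.9 in knockouts, against 138.3, 166.3 and 90.6 in controls (log2 difference -0.36, adjusted p over probe sets = 0.593). The other, under the filter, was higher in the knockouts by 0.77. Without probe sets of the kind that can match several transcripts, Mcm10 had a log2 difference of -0.36 and no call. In its list of 40 replication origin and fork genes 35 were tested, 1 fell, 24 lay below control and the median was -0.22, beside -0.02 for all genes. After median centring 19 of the 35 lay below control and the median was -0.12, beside 0.08 for all genes.

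Jun and Jund, subunits of the AP-1 transcription factor, were the genes that fell among 23 tested growth signals and early response genes. That is 8.7% of this list, beside 1.98% of all genes tested that passed in either direction and 0.944% that fell. Jun, needed for hepatocytes to proliferate in the regenerating mouse liver, had a signal of 365.7, 436.8 and 254.2 in knockouts, against 600.8, 1053 and 1174 in controls. On the log2 scale it differed by -1.36 (standard error 0.27, limma adjusted p = 0.0433), and its further probe set by -1.24. The Jun call was lost without each mouse except control 1, with adjusted p up to 0.133, and was made in 7 of 20 other settings.

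Jund had a signal of 1528, 1600 and 1551 in knockouts, against 2518, 2415 and 2370 in controls, with the smallest spread of the 3. The log2 difference was -0.64 (standard error 0.09, limma adjusted p = 0.0118). The call was lost without knockout 3 (adjusted p = 0.0575) and held without each other mouse. It was also lost after median centring (adjusted p = 0.0938), without the variance trend (adjusted p = 0.0613) and in a test per gene that shares no variance between genes (adjusted p = 0.191). In the whole list 20 of 23 genes lay below control, or 87%, beside 52.8% of all genes tested. The median of the list was -0.30, beside -0.02 for all genes. After median centring 19 of the 23 lay below control, with a median of -0.20, beside 0.08 for all genes. The entry Taz in that list is the mouse symbol of tafazzin.

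In the other lists 0 genes passed. Among 20 tested cyclins and CDKs outside the set, Ccnf, an F-box cyclin, had 447.5, 310.5 and 391.3 in knockouts, against 686.9, 655.2 and 608.1 in controls, a log2 difference of -0.75 at the threshold itself (limma adjusted p = 0.05002). Cks1b, a small kinase subunit, had 2664, 1921 and 2028 in knockouts, against 1620, 1088 and 1617 in controls, a log2 difference of 0.62 (adjusted p = 0.152). Neither gene's groups overlapped, which held for 7 of the 20, or 35%, beside 21.3% of all genes tested.

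Of 4 tested CDK inhibitors outside the set, Cdkn1a, which encodes p21, had 1051, 702.1 and 461.3 in knockouts, against 377.2, 174.6 and 297 in controls. All knockouts were above all controls, with a difference of 1.32 on the log2 scale (standard error 0.33, limma adjusted p = 0.0947). Cdkn2d, which encodes p19, differed by -0.44 (adjusted p = 0.459). Among 19 genes of the E2F, pocket protein and MuvB list, Mxd1, an antagonist of MYC, differed by 0.63 and E2f5, a repressor, by -0.35 (adjusted p = 0.299 and 0.717).

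Of 8 tested genes of deoxynucleotide supply, Dck, a salvage kinase, and Umps, of pyrimidine synthesis, differed by -0.39 and -0.23 (limma adjusted p = 0.392 and 0.447). Of 44 spindle, kinetochore and cytokinesis genes 25 were tested, with 19 below control and a median of -0.18, beside -0.02 for all genes. After median centring 16 lay below control with a median of -0.08, beside 0.08 for all genes, and without control 3 the median was -0.05. Racgap1 and Prc1, both needed for the central spindle, had the largest differences there, -1.13 and 0.86, at signals near the filter (adjusted p = 0.432 and 0.494). Of 10 tested genes of DNA damage checkpoint and repair, the checkpoint kinase Chek2 and the recombination gene Brca2 differed by -0.40 and -0.30 (adjusted p = 0.442 and 0.464).

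**Figure D4:**
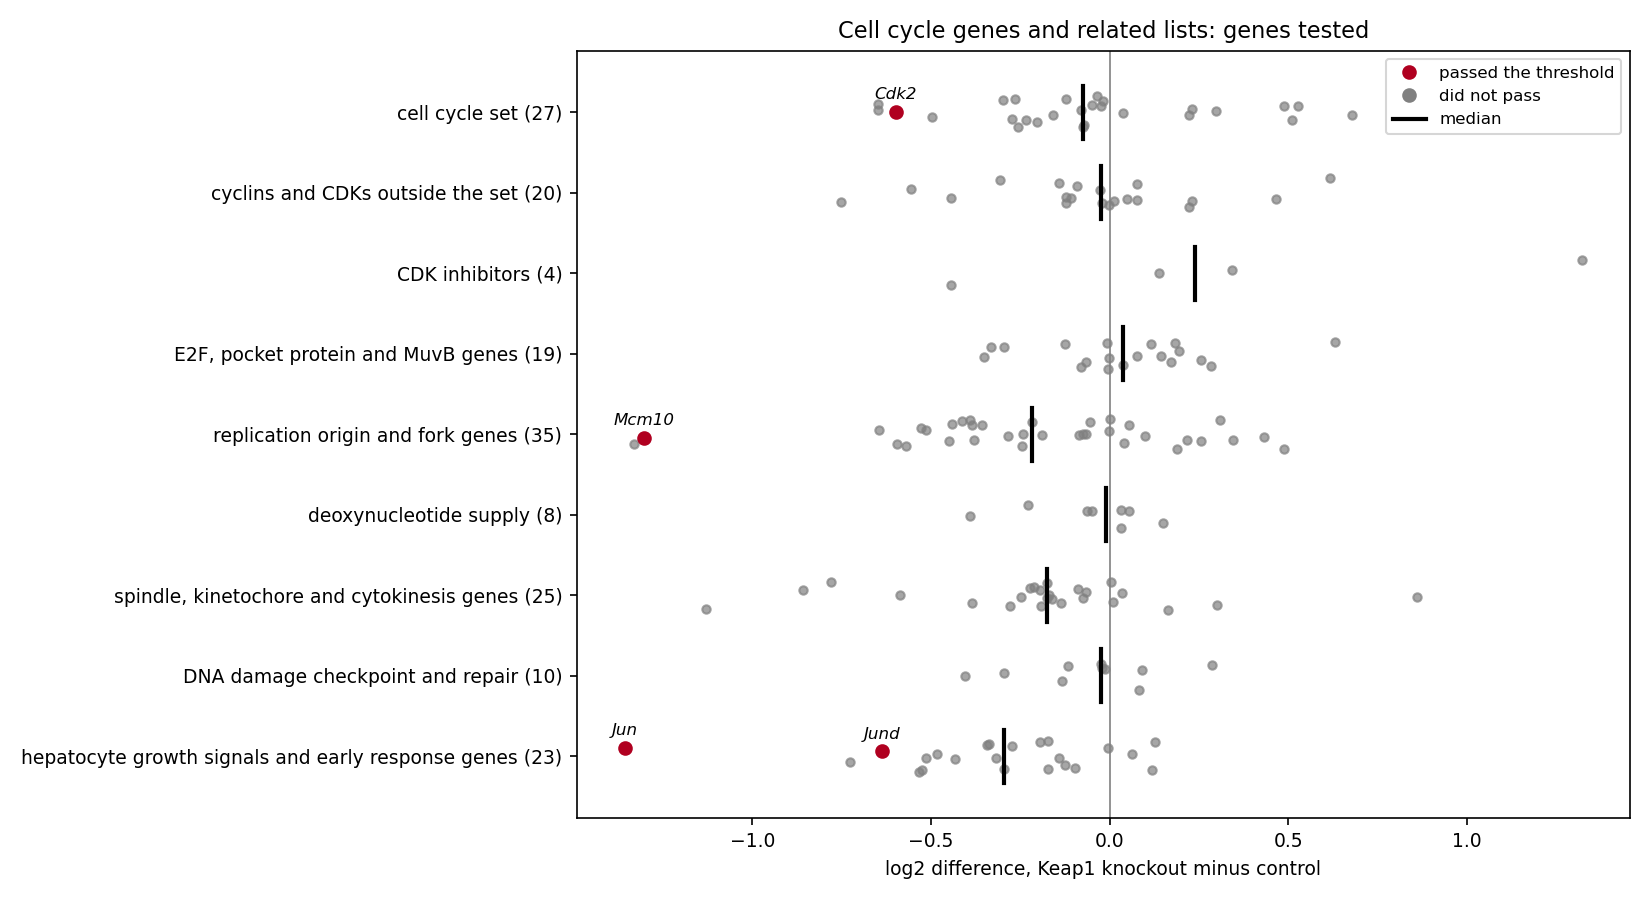
Log2 difference, knockout minus control, of every tested gene in the cell cycle set (top) and in the 8 wider lists, with the number of genes tested in brackets. Each point is 1 gene, black bars are medians, and the named points passed the threshold. All 4 named genes, Cdk2, Mcm10, Jun and Jund, lie below 0.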

How the data were processed

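Liver RNA of 6 mice was measured on 6 single-colour Affymetrix arrays with biotin-labelled cRNA, per the labels' protocols. The deposited values are linear array intensity, 1 per probe set, which the authors had scaled, since the mean of every array without its top and bottom 2% was 500.0. The labels name neither the summarising software nor a genome build, and detection calls were not used.

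Groups came from the labels. Of 45101 probe sets, 64 were controls, 34945 had 1 symbol, 932 several and 9160 none. Values became log2(signal + 16), a scale that understates changes of dim genes. Between 11.9% and 16.5% of values per array were under 16. Probe sets whose mean log2 value reached the 40th percentile were kept, and the brightest represented its gene, which gave 13027 genes. The comparison used limma 3.58.1 under R 4.3.3 (lmFit and eBayes with trend, two-sided, Benjamini-Hochberg over all genes, threshold 0.05). The steps were tested on simulated data. An exact permutation test of 3 against 3 mice cannot go below p = 0.1, and the number of arrays limits the precision. Named genes were the set itself, Keap1 and Nfe2l2, and in each wider list those past the threshold, or otherwise the 2 with the largest difference. The set and the lists were chosen with earlier results of these data known. Alternatives changed the filter, offset, normalization, variance model, probe set choice and mice. Promoters came from RefSeq.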

Additional observations from a re-analysis of the deposited data

How the results depend on the processing

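No paired analysis was possible because the groups share only replicate number 3. The count of all genes called, 258, became 77 without the variance trend, 0 with a Welch test per gene (1334 at unadjusted p under 0.05), and 92 to 171 without 1 mouse (92, 171 and 135 without knockouts 3, 4 and 5, and 120, 128 and 170 without controls 1, 2 and 3). Of the cell cycle set, 1 gene called became 0 without a filter, after quantile normalization, median centring or cyclic loess, without the trend, with the Welch test, and without probe sets that can match several transcripts. It became 2 with the filter at the 60th percentile, with array weights (Cdk2 and Cdk6 in both) and under hybridisation control scaling (Cdk2 and Mcm7), and 0 to 1 without 1 mouse. The median difference of the tested set was -0.22 under hybridisation control scaling, which moved the median of all genes to -0.17, and -0.13 to -0.0025 without 1 mouse. The 3 calls of the wider lists became 5 with the filter at the 60th percentile, 1 after median centring, 6 under hybridisation control scaling, 1 without the trend, 0 with the Welch test and 1 to 3 without 1 mouse. The Keap1 difference of -1.74 lost its call with the Welch test (adjusted p = 0.412). The share of calls that were higher, 52.3%, was 64.9% after median centring, 23.9% under hybridisation control scaling and 63.6% without the trend. The cause of these shifts was not tested. For the 27 tested genes of the set with Nfe2l2, Mcm10, Jund and Jun, 41 calls were lost and 4 were gained over these alternatives, and 0 reversed as calls. In the wider lists Ccnf, Orc3, Spc25, Tgfa and Egfr were each called in at least 1 alternative. The number of mice, 3 a group, limits the precision, and 9 genes lay near background.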
